A study of Homo sapiens with 4 samples.

Results

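Tumour cells carry surface ligands that restrain or alert immune cells, and 10 genes for such ligands were examined in melanoma cells exposed to a medium-chain fatty acid. The genes were taken by symbol from a table of 56832 genes: CD274 and PDCD1LG2 (the PD-1 ligands PD-L1 and PD-L2), CD276 (B7-H3), CD47, PVR (CD155), and the NKG2D ligand genes MICA, MICB, ULBP1, ULBP2 and ULBP3. All 10 were in the table, 9 had reads, and the same 9 were tested, having a mean over the libraries of at least 10 normalised counts. RNA was sequenced from A375, an established human melanoma line labelled as wild type and grown in medium with serum. The vehicle group received the solvent isopropanol and the octanoate group 1 mM octanoate, each for 48 h and with 2 libraries. Nothing in the labels says that the libraries of a group came from separate cultures, so the p-values measure only the spread between these libraries, which may be technical. All values come from 1 cell line without immune cells added.

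PD-L1 and PD-L2 bind PD-1 on T cells and dampen their activation. CD47 binds SIRP-alpha on macrophages and acts as a signal against phagocytosis, while PVR binds the inhibitory receptors TIGIT and CD96 and the activating receptor DNAM-1. MICA, MICB and the ULBP proteins are MHC class I-like molecules, induced by cell stress, that bind the activating receptor NKG2D of NK cells and some T cells. Transcription of CD274 is classically driven by interferon-gamma, MICA and MICB are known for heat shock elements in their promoters, and ATF4 is a known activator of ULBP1.

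Promoter windows from RefSeq (GRCh38.p14, 250 bases before to 50 after each gene's start) were matched for 9 of the 10 genes, PDCD1LG2 being the one without an entry. The sequences below are shown because they hold matches to some of the motifs searched for, not all of which belong to pathways followed further on. Positions count from the RefSeq start with -1 as the base before it. The CD274 window lies at chr9:5450292-5450502 on the plus strand, from -250 to -40, outside every exon in GENCODE 29. Capitals mark a pair of overlapping matches to the IRF motif (GAAA, any 2 bases, GAAA) on the opposite strand, at -208 and -202, and a match to the STAT motif TTCNNNGAA at -125.
CD274: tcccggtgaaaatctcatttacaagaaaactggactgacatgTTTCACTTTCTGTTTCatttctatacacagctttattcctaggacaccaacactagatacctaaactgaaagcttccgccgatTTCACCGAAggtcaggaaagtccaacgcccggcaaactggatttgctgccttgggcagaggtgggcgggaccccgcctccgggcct
Searched on both strands, the IRF motif was in 3.57% of all 35116 promoter windows and the STAT motif in 7.66%. Among the 10 windows of the ligand genes (CD276 has more than 1), each of these motifs was found in CD274 only.

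MICA and MICB both held the heat shock motif GAANNTTC, at -135 and -139, which was in 6.77% of all windows. The stretches around it are at chr6:31403434-31403493 for MICA and chr6:31497980-31498039 for MICB, both on the plus strand and outside exons in GENCODE 29, with the motif in capitals. They were identical at 53 of 60 bases.
MICA: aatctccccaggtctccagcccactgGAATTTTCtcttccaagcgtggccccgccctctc
MICB: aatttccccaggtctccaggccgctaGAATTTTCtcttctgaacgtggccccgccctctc

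ULBP2 and ULBP3 each held the AP-1 motif TGANTCA across or beside the start, at -2 and -6, against 7.71% of all windows. ULBP2 also held the ATF4 composite motif TGATGNAA on the opposite strand at 21, against 3.62% of all windows. The stretches of 30 bases that begin with the AP-1 motif are at chr6:149942012-149942041 on the plus strand (ULBP2, first exon in GENCODE 29) and chr6:150069098-150069127 on the minus strand (ULBP3), with these motifs in capitals.
ULBP2: TGATTCAtcttccaggctctccTTCCATCA
ULBP3: TGATTCAtacgctggtctccacatcgactg
None of the motifs above was in the windows of CD276, CD47, PVR or ULBP1. The NF-kappaB motif (GGGA, any base, TT, any base, CC) and the CRE motif TGACGTCA were in no window of the ligand genes (1.4% and 1.85% of all windows). A match is a run of letters and not a shown binding site.

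The cells carried part of the melanoma signature. SOX10 and CSPG4 had normalised counts of at least 34072 in every library and PRAME at least 11765. The pigment genes TYR, MLANA, DCT and TYRP1 were at 52.0 or less, and PMEL was at 65.8 to 98.2. Recovered reads ranged from 67785956 to 78005035 per library. Octanoate libraries differed from vehicle libraries broadly: of 20250 tested genes, 29.9% passed an adjusted p under 0.05 in limma, 16.2% higher and 13.7% lower. Counts for the ligand genes are read against these shares.

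Transcripts of both PD-1 ligands, of PVR and of ULBP2 were higher under octanoate, by 1.37 to 1.82 fold, and no ligand gene was called lower. That is 4 of the 9 tested genes (44.4%), against 29.9% of all tested genes called in either direction and 16.2% called higher. By other fits the count was 4 of 9 with edgeR (background 32.0% in either direction) and 3 with DESeq2 (27.5%). In limma without the expression trend it was 2 (8.02%). The authors' deposited table called 3, with a background of 12.9% in either direction and 6.89% higher. This background is over 33533 genes, more than were tested in the other fits, so it cannot be set beside theirs. The median log2 difference of the 9 genes was 0.20, against 0.01 over all tested genes. CD276, CD47, MICA, MICB and ULBP3 were not called, and ULBP1 had no read in any library. The libraries of the 2 groups did not overlap for 7 of the 9 genes, 6 higher and 1 lower under octanoate, against 32.6% of all tested genes higher and 30.5% lower, 63.1% in all. In bulk RNA, more cells expressing a gene and more RNA per cell cannot be told apart.

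**Figure D1:**
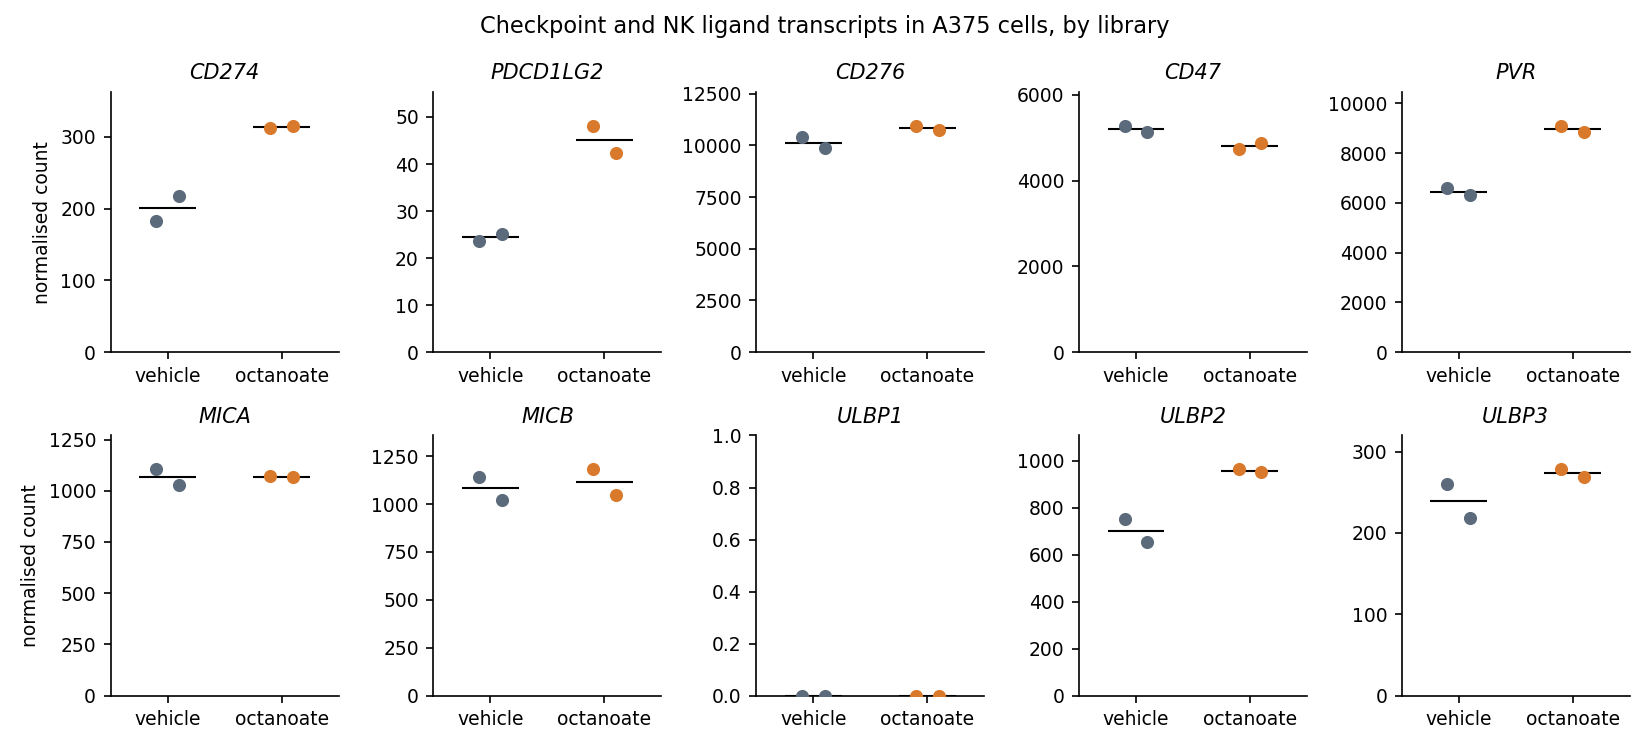
Normalised count of each ligand gene (vertical axes, from 0) in each library, with vehicle in grey and octanoate in orange. Points are libraries and black lines are the means of 2 libraries. Both octanoate libraries lie above both vehicle libraries for CD274, PDCD1LG2, CD276, PVR, ULBP2 and ULBP3, and below them for CD47.

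CD274 had normalised counts of 183 and 218 in vehicle and of 312 and 315 in octanoate. Both octanoate libraries were above both vehicle libraries, by more than the spread of either pair. The means were 200 ± 25 and 314 ± 2.48 (SD, n = 2 each), a log2 difference of 0.65 (limma, SE 0.12, adjusted p 2.48e-04) or 1.57 fold with a 95% interval from 1.32 to 1.87. These values rest on 186, 225, 324 and 291 reads. The authors' deposited table lists 0.65 with an adjusted p of 0.00525. When limma's variance prior took no account of expression level, the adjusted p of CD274 was 0.0594.

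PDCD1LG2 was the least abundant ligand gene with reads, at 23.6 and 25.2 normalised counts in vehicle and 48.1 and 42.3 in octanoate. The octanoate values were again both above the vehicle values, but they rest on only 24, 26, 50 and 39 reads. The log2 difference was 0.86 (limma, SE 0.28, adjusted p 0.0227), with a 95% interval of the fold from 1.21 to 2.72. This call did not hold throughout. The adjusted p was 0.078 without vehicle 1, 0.16 without octanoate 1, 0.0638 without octanoate 2, 0.0982 with every gene that had a read, 0.154 with DESeq2 on the recovered reads and 0.198 in the authors' deposited table.

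CD274 and PDCD1LG2 are neighbours on chromosome 9 (GENCODE 29, GRCh38: CD274 from 5450503 to 5470566, PDCD1LG2 from 5510570 to 5571254, both on the plus strand), with 40003 bases between them. Other genes within 200 kb, chosen after their values were seen, did not all move alike. PLGRKT, which encodes a plasminogen receptor, had a log2 difference of 0.24 (adjusted p 0.00941, limma, and 0.0606 without octanoate 1), and ERMP1, an endoplasmic reticulum metallopeptidase gene, one of 0.58 (adjusted p 2.08e-07, limma). RIC1 (5629025 to 5776557, plus strand) lies beyond PDCD1LG2, and its end overlaps ERMP1 (5765076 to 5833117, minus strand). Whether their exons overlap was not examined. RIC1 had 3949 and 3881 normalised counts in vehicle and 3992 and 4021 in octanoate, a log2 difference of 0.03 (adjusted p 0.723, limma).

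PVR (chromosome 19, 44643798 to 44663583, plus strand) was the one ligand gene called under every setting tried. Its normalised counts were 6602 and 6304 in vehicle and 9094 and 8862 in octanoate, so that the groups were far apart relative to the spread within each. The means were 6453 ± 210 and 8978 ± 164 (SD, n = 2 each), a log2 difference of 0.48 (limma, SE 0.06, adjusted p 5.57e-07) or 1.39 fold with a 95% interval from 1.28 to 1.51. Over the 14 alternative settings its adjusted p lay between 3.18e-16 and 0.0433, and the authors' deposited table lists 0.48 with an adjusted p of 1.18e-13. In GENCODE 29, 3.44% of its exon length overlaps CEACAM19 on the same strand.

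CD276 (chromosome 15, 73683966 to 73714518, plus strand) and CD47 (chromosome 3, 108043094 to 108091862, minus strand) were abundant and differed little. CD276 had 10415 and 9866 normalised counts in vehicle and 10943 and 10744 in octanoate, a log2 difference of 0.10 (limma, SE 0.06, adjusted p 0.209). Its interval of the fold ran from 0.986 to 1.16. CD47 went the other way, from 5272 and 5124 in vehicle to 4737 and 4878 in octanoate. The log2 difference of CD47 was -0.11 (limma, SE 0.06, adjusted p 0.153), with an interval of the fold from 0.851 to 1.01. For both genes the 2 groups did not overlap, yet the difference did not pass the threshold.

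**Figure D2:**
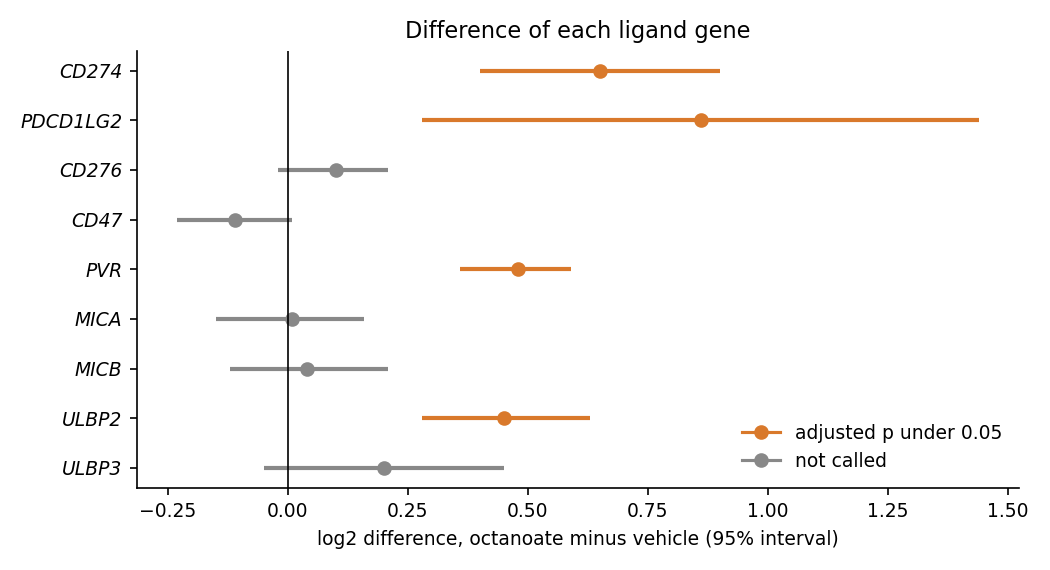
Log2 difference between octanoate and vehicle (horizontal axis) for the 9 tested ligand genes, with 95% intervals from limma. Orange marks an adjusted p under 0.05 (CD274, PDCD1LG2, PVR and ULBP2) and grey the genes not called, and the interval of PDCD1LG2, from 0.28 to 1.44, is the widest.

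Of the 4 tested NKG2D ligand genes, ULBP2 alone was called. It lies on chromosome 6 (149942000 to 149949235, plus strand) and had 751 and 654 normalised counts in vehicle and 964 and 954 in octanoate, with both octanoate libraries above both vehicle libraries. The means were 702 ± 68.5 and 959 ± 6.94 (SD, n = 2 each), a log2 difference of 0.45 (limma, SE 0.08, adjusted p 2.32e-04) or 1.37 fold with a 95% interval from 1.21 to 1.54. The authors' deposited table lists 0.45 with an adjusted p of 0.00111. Without the expression trend in limma, ULBP2 had an adjusted p of 0.0788.

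ULBP3 (chromosome 6, 150063150 to 150069095, minus strand) had 260 and 218 normalised counts in vehicle and 278 and 269 in octanoate, a smaller gap than the spread of the vehicle libraries. Its log2 difference was 0.20 (limma, SE 0.12, adjusted p 0.237), and the 95% interval of the fold, from 0.963 to 1.37, includes no difference and overlaps that of ULBP2. Whether ULBP2 and ULBP3 differ in their response was not tested.

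MICA (31399784 to 31415315) and MICB (31494881 to 31511124) lie on the plus strand of chromosome 6, in the MHC region, with 79.6 kb between them. MICA was at 1104 and 1027 normalised counts in vehicle and 1073 and 1065 in octanoate, with the octanoate values inside the vehicle range. The log2 difference was 0.01 (limma, SE 0.08, adjusted p 0.965), and the interval of the fold ran from 0.901 to 1.12. MICB had 1139 and 1024 in vehicle and 1181 and 1048 in octanoate, a log2 difference of 0.04 (limma, SE 0.08, adjusted p 0.741) with an interval of the fold from 0.917 to 1.16. The values of MICB alternated between the groups.

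ULBP1 had 0 reads in each of the 4 libraries, 297362126 reads in all. A count of 0 allows up to 3 reads, which is 2.89 to 3.25 normalised counts in a single library, a limit that covers counting error only. ULBP1 lies 14.8 kb from ULBP2 on chromosome 6 (149964007 to 149973710, plus strand). Its transcript matches that of the pseudogene RAET1K over 1227 bases at 93.1% identity, and RAET1K had between 39.7 and 57.9 normalised counts per library. No response of ULBP1 to octanoate could be measured, and whether the 0 reflects the transcript or the way reads were counted was not tested.

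Genes within 200 kb of the cluster that runs from RAET1E to ULBP3 were examined, chosen after their values were seen. They included some called higher (RAET1E and RAET1L, described further on), PPP1R14C, called lower, and some not called. RAET1G, an NKG2D ligand gene, had 25.5 and 20.3 normalised counts in vehicle and 16.4 and 11.9 in octanoate, a log2 difference of -0.67 that was not called (adjusted p 0.203, limma). LATS1, a kinase gene of the Hippo pathway beyond the cluster, had a log2 difference of 0.0 (adjusted p 0.976, limma). PPP1R14C, which encodes a phosphatase inhibitor on the other side, fell from 692 and 686 to 521 and 522 (log2 difference -0.40, adjusted p 0.00101, limma).

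Reads can be shared between near-identical relatives, which makes some of these counts uncertain. ULBP2 matches RAET1L, a further NKG2D ligand gene, over 1286 bases at 95.4% identity. RAET1L, named for this reason and after its values were seen, had 19.6 and 23.3 normalised counts in vehicle and 48.1 and 40.1 in octanoate, a log2 difference of 1.01 (limma, SE 0.29, adjusted p 0.0116, and 0.0602 without vehicle 1 and 0.123 without octanoate 1). The authors' deposited table gives RAET1L an adjusted p of 0.135. MICA and MICB match over 1374 bases at 91.3% identity. Exons of MICA also overlap HCP5 on the same strand over 2.6% of their length. No shared stretch of at least 100 bases at 90% identity was found for CD274, PDCD1LG2, CD47 or ULBP3.

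Levels between genes were compared as normalised count per kilobase of exon in GENCODE 29. In vehicle, PVR and CD276 stood highest, both with a mean of 1830 per kb, and their libraries overlapped. CD47 followed with 632, then ULBP2 with 521, MICA with 447, MICB with 386 and ULBP3 with 242 per kb, and the vehicle libraries of neighbours in this order did not overlap. CD274, with 48.8 per kb, and PDCD1LG2, with 10.3, were far below. Under octanoate PVR reached 2550 per kb, above both libraries of CD276 (1970 and 1940), and ULBP2 at 711 per kb stood above CD47 at 584. Of the tested genes 15141 (74.8%) were found by name in GENCODE 29, and among these the percentile of the mean level per kb was 90.2 for PVR, 88.4 for CD276, 27.0 for CD274 and 13.7 for PDCD1LG2.

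**Figure D3:**
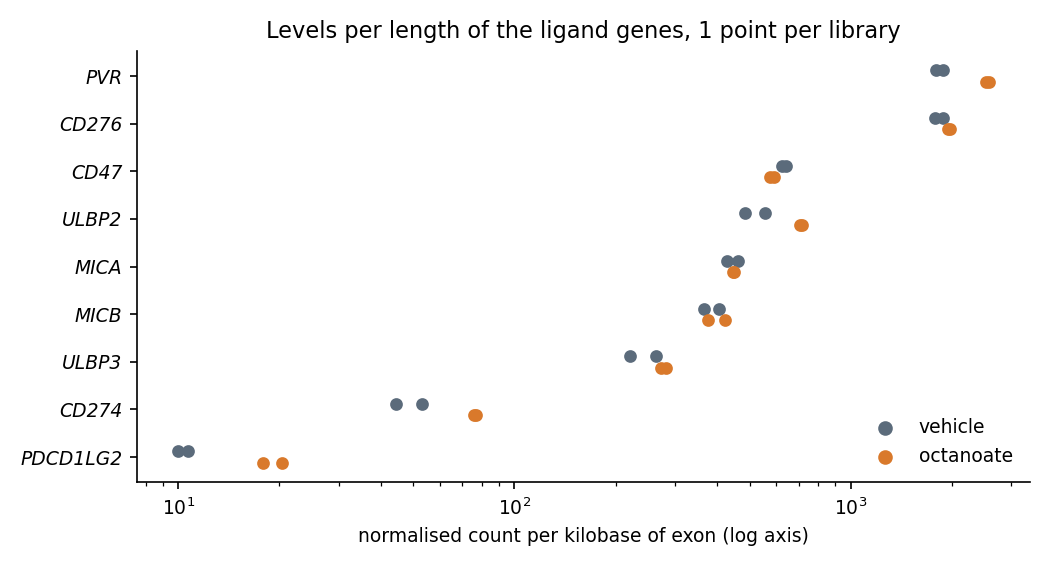
Normalised count per kilobase of exon (horizontal log axis) for the 9 ligand genes with reads, ordered by their vehicle mean. Each point is 1 library, vehicle in grey and octanoate in orange. PVR and CD276 share the highest vehicle level, 1830 per kb, and PDCD1LG2 has the lowest, 10.3 per kb.

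Of 27 other checkpoint ligands and related surface or soluble factors, 21 were tested, and 6 were called higher and 3 lower (42.9% called, background 29.9%). The median log2 difference of the 21 was 0.06. NT5E, the CD73 enzyme that makes immunosuppressive adenosine, rose from 6277 and 6178 normalised counts to 14322 and 15002, a log2 difference of 1.23 (limma, SE 0.06, adjusted p 2.67e-14). CEACAM1, a ligand of TIM-3, rose from 115 and 119 to 298 and 261, a log2 difference of 1.25 (limma, SE 0.14, adjusted p 1.30e-07). VSIR, which encodes the checkpoint protein VISTA, rose from 975 and 938 to 1358 and 1264 (log2 difference 0.45, adjusted p 5.37e-05, limma). CD200, a ligand that restrains myeloid cells, fell from 256 and 239 to 150 and 169 (log2 difference -0.63, adjusted p 6.38e-04, limma). The T cell costimulators CD70 and TNFSF9 were lower as well, with log2 differences of -0.33 and -0.29, and NECTIN2, which shares receptors with PVR, was higher by 0.24 (adjusted p 0.00113, 0.0104 and 0.0104 in limma). BTN2A1 and BTN3A1, butyrophilin genes, were the other genes called higher, by 0.20 and 0.21 (adjusted p 0.0286 and 0.0484 in limma). These 5 genes were named after their values were seen. Leaving out a library ended the calls of NECTIN2 (adjusted p 0.172 without vehicle 2 and 0.143 without octanoate 1) and of TNFSF9 (0.194 without vehicle 1 and 0.183 without octanoate 2). Without the expression trend 3 genes of the list were called, and VSIR (0.0541) and CD70 (0.174) were not. With every gene that had a read 4 were called, CD70 (0.13) not among them. BTN2A1 and BTN3A1 each lost their call without vehicle 2, without octanoate 1 and without octanoate 2.

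Of 15 other NK cell ligands, 13 were tested, with 3 called higher and 2 lower (38.5%, background 29.9%) and a median log2 difference of 0.02. RAET1E, an NKG2D ligand gene of the ULBP cluster, rose from 118 and 116 normalised counts to 195 and 180, a log2 difference of 0.68 (limma, SE 0.14, adjusted p 8.91e-04). In GENCODE 29 it shares 35.0% of its exon length with AL355312.5 on the same strand, so its count is uncertain. NCR3LG1, which encodes the NKp30 ligand B7-H6, rose from 923 and 935 to 1157 and 1137 (log2 difference 0.30, adjusted p 0.00321, limma, and 0.0707 without the expression trend). CADM1, a ligand of CRTAM on NK and T cells, fell from 4174 and 3745 to 2634 and 2524 (log2 difference -0.62, adjusted p 8.26e-08, limma). PDGFD, which encodes a growth factor bound by NKp44, fell from 233 and 222 to 158 and 150 (log2 difference -0.56, adjusted p 0.0021, limma).

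Several receptors of these ligands had few or no reads. PDCD1 had no read, TIGIT between 1 and 5 reads and KLRK1, which encodes NKG2D, between 5 and 7 reads per library. CD96 and SIRPA were well detected. CD96 had 14921 and 14382 normalised counts in vehicle and 17833 and 17669 in octanoate, with a log2 difference of 0.28 (limma, SE 0.06, adjusted p 4.78e-04). SIRPA, the receptor of CD47, fell from 1767 and 1629 to 1361 and 1368 (log2 difference -0.31, adjusted p 0.00142, limma). Of the 8 receptor genes 3 were tested, and 1 was called higher and 1 lower (background 29.9% in either direction). Without the expression trend neither was called, at adjusted p 0.0856 and 0.0915.

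Of 20 genes for ligand stability, maturation and shedding, 19 were tested, with 4 called higher and 1 lower. These are 26.3% of the list, below the background of 29.9%. CMTM4, a membrane protein that protects PD-L1 from breakdown, rose from 3070 and 2947 normalised counts to 4129 and 4184, a log2 difference of 0.47 (limma, SE 0.06, adjusted p 1.77e-06). Its relative CMTM6 had 11654 and 11609 in vehicle and 12685 and 12735 in octanoate, and the log2 difference of 0.13 was not called (adjusted p 0.0841, limma), though it was with equal column totals (0.0483) and with edgeR (0.0433). HIP1R, which directs PD-L1 to lysosomes, rose by 0.38 on the log2 scale (adjusted p 4.79e-05, limma). QPCT, a glutaminyl cyclase related to the enzyme that modifies CD47, rose by 0.44 (adjusted p 2.60e-04, limma). QPCTL, the gene of that enzyme, named after its values were seen, was not called (log2 difference -0.09, adjusted p 0.377, limma). The protease gene MMP2 fell from 15795 and 14056 to 10519 and 9618 (log2 difference -0.57, adjusted p 1.96e-07, limma). ADAM9, a sheddase gene named after its values were seen, was the remaining call (log2 difference 0.17, adjusted p 0.0235, limma), lost on leaving out vehicle 1, octanoate 1 or octanoate 2. The count of called genes in this list was 8 with equal column totals and with edgeR, and 2 without the expression trend.

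Genes of the interferon and JAK-STAT route to PD-L1 were called lower more often than higher. All 15 were tested, with 1 called higher and 6 lower. These are 46.7% of the list, against a background of 29.9% in either direction (16.2% higher and 13.7% lower). The median log2 difference was -0.16. SOCS3, a feedback inhibitor of cytokine signalling, fell from 1994 and 1697 normalised counts to 1225 and 1074, a log2 difference of -0.68 (limma, SE 0.08, adjusted p 6.17e-07). STAT3 fell from 8548 and 8098 to 6703 and 6468 (log2 difference -0.34, adjusted p 7.49e-05, limma). IRF2 had a log2 difference of -0.19 (adjusted p 0.0248, limma) and the receptor gene IFNAR1 one of -0.16 (adjusted p 0.0351, limma). The other calls, named after their values were seen, were JAK2 (log2 difference 0.21), JAK1 (-0.16) and IRF9 (-0.64), with adjusted p 0.0396, 0.045 and 0.0413 in limma. IRF9 shares 48.4% of its exon length with AL136295.5 on the same strand, so its count is uncertain. IRF1, chosen after its values were seen because its motif is in the CD274 window, had 573 and 564 in vehicle and 506 and 506 in octanoate, a log2 difference of -0.17 (adjusted p 0.173, limma). Leaving out a library lowered the count: 3 genes of the list were called without vehicle 1, 4 without vehicle 2, 2 without octanoate 1, 3 without octanoate 2, and 0 without the expression trend. IRF2 was called without vehicle 2 but lost its call on leaving out each of the others (adjusted p 0.188, 0.0619 and 0.14), and IFNAR1 lost it on leaving out any library (0.0908 to 0.201), as did JAK1 and JAK2. IRF9 stayed called without vehicle 2 and was lost without each of the others.

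The stress and damage list for NKG2D ligands had 5 genes called higher and 1 lower among 15 tested. These are 40.0% of the list, against a background of 29.9% in either direction (16.2% higher and 13.7% lower). The median log2 difference was 0.11. ATF4, the translation-controlled factor of the integrated stress response, rose from 28967 and 27092 normalised counts to 37801 and 36088, a log2 difference of 0.40 (limma, SE 0.06, adjusted p 1.23e-05). ATF3 rose from 372 and 333 to 860 and 833 (log2 difference 1.26, adjusted p 1.67e-10, limma), and DDIT3, which encodes CHOP, from 689 and 583 to 949 and 872 (log2 difference 0.52, adjusted p 9.21e-05, limma). E2F1, a cell cycle factor known to drive MICA and MICB, rose from 4682 and 4060 to 6246 and 5826 (log2 difference 0.47, adjusted p 6.86e-06, limma). The remaining calls, named after their values were seen, were XBP1 (log2 difference 0.21, adjusted p 0.00835, limma) and RBM4 (-0.33, adjusted p 0.0403, limma). XBP1 lost its call without vehicle 2 or octanoate 1, and RBM4 on leaving out any library. The heat shock genes HSF1, HSPA1A and HSPA1B, also named after their values were seen, were not called. Their log2 differences were 0.11, -0.02 and 0.13 (adjusted p 0.241, 0.873 and 0.114 in limma). HSPA1B shares 36.5% of its exon length with AL671762.1 on the same strand, so its count is uncertain. Exons of DDIT3 overlap MARS on the opposite strand over 27.2% of their length, and the strand setting of the counting is not given in the sources used here. Without the expression trend 1 gene of the list was called, and the adjusted p was 0.0649 for ATF4, 0.0861 for DDIT3 and 0.0849 for E2F1.

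**Figure D4:**
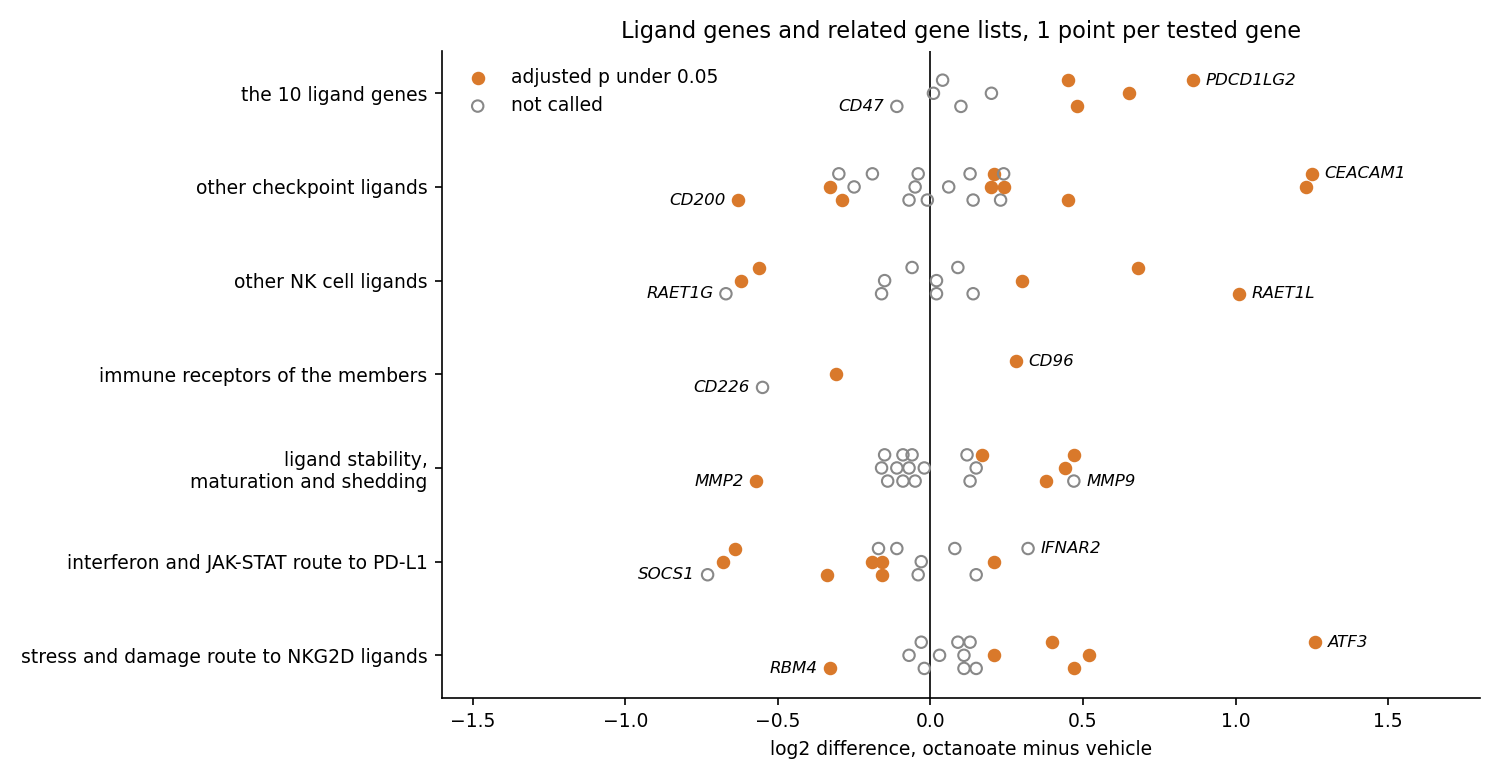
Log2 difference between octanoate and vehicle (horizontal axis) for every tested gene of the ligand set and of 6 related lists (rows), with filled orange points at an adjusted p under 0.05 and open grey points otherwise. The gene with the lowest and the gene with the highest value are named in each row, and the ligand genes run from -0.11 (CD47) to 0.86 (PDCD1LG2).

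Genes with the pattern most like that of a ligand gene were taken by the Euclidean distance of log2 values, centred on the vehicle mean, over the 4 libraries. For PDCD1LG2 these were KRT7, NPTXR and POU2F2 (distances 0.0286, 0.0623 and 0.0969). The nearest to PVR were RFX2, ADGRB2 and PALM (0.00523, 0.0169 and 0.0174), and to ULBP2 LMCD1, VSNL1 and SLC29A2 (0.021, 0.0229 and 0.0244). Of 13481 genes, 181 lay within a distance of 0.1 of PVR, 117 of ULBP2 and 5 of PDCD1LG2.

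Markers of other cell types were examined because immune cells also carry several of these ligands. Summed normalised counts of 7 T cell markers were 162 to 170 in vehicle and 157 to 172 in octanoate, with CD2 at 0. Those of 7 NK cell markers were 221 to 301 and 249 to 272, and those of 7 myeloid and leukocyte markers 632 to 697 and 778 to 827, most of the last from LYZ. Within them TRAC fell from 47.1 and 48.4 to 22.1 and 16.3 (adjusted p 0.00194, limma), and KLRD1 from 13.7 and 31.0 to 6.74 and 3.25 (adjusted p 0.00808, limma), while LYZ rose from 635 and 574 to 700 and 749 (adjusted p 0.0273, limma). The KLRD1 values rest on 14, 32, 7 and 3 reads, and the gene was under the filter without vehicle 2. Its call was lost with every gene that had a read and without the expression trend, and the call of TRAC with every gene that had a read. The authors' deposited table gives TRAC an adjusted p of 0.048 and LYZ one of 0.122, and does not call KLRD1. In each of these 3 lists 6 of 7 genes stayed below 50 in every library. The keratinocyte and epithelial list fell from 999 to 1177 in vehicle to 272 to 313 in octanoate, almost all of it KRT14 (log2 difference -2.08, adjusted p 2.40e-13, limma), with KRT1 at 0 and 5 of 6 genes below 50. The fibroblast list summed to 1333 to 1352 in vehicle and 1128 to 1153 in octanoate. The part of other cell types in the ligand results was not tested.

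**Figure D5:**
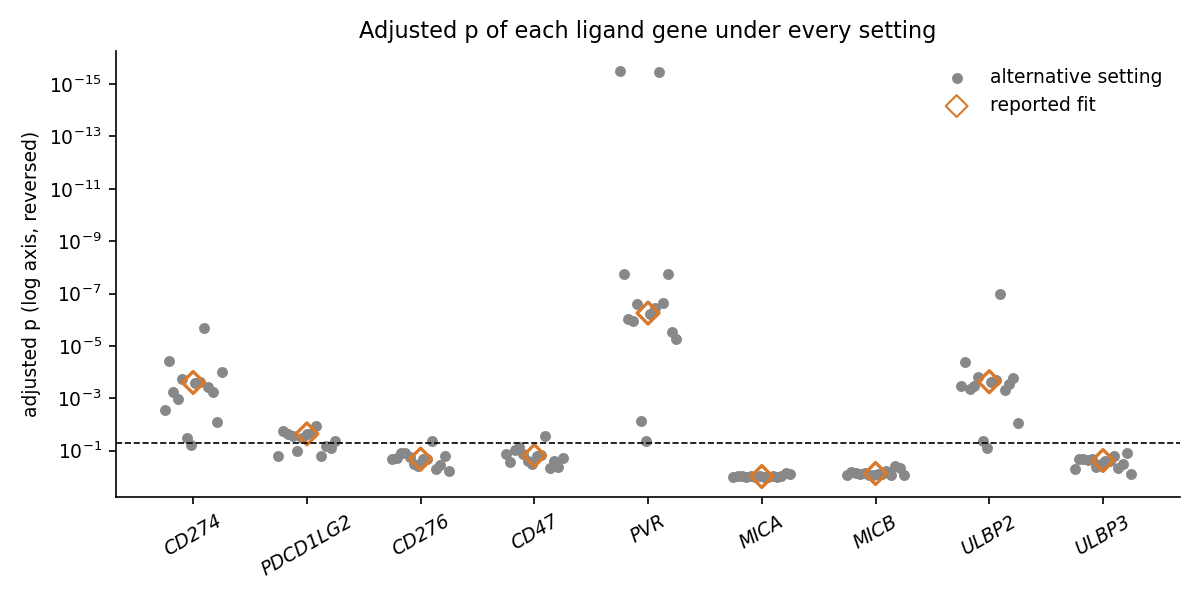
Adjusted p (vertical log axis, small values at the top) of the 9 tested ligand genes under the reported limma fit (orange diamonds) and each alternative setting (grey points), with a dashed line at 0.05. PVR stays above the line under every setting shown, CD274 and ULBP2 fall below it under 1 of 14, and PDCD1LG2 under 5 of 13.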

How the data were processed

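The authors deposited normalised counts per gene, a signal made by dividing the reads of a library by 1 DESeq2 size factor (1.02, 1.03, 1.04 and 0.923), per the file name and values. Dividing each column by the value of 1 read gave whole numbers for 100% of values (tolerance 0.001), so whole reads were recovered. The authors' deposited comparison holds a mean signal, a log2 fold change, its standard error and test score, and p-values. The submitters' processing notes name hg38, bcl2fastq 2.17, Trim Galore, STAR 2.4, Picard, HTSeq 0.9.1 and DESeq2.

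Values were taken as log2(normalised count + 1), genes averaging under 10 were left out, and the rest were fitted with limma 3.58.1 (R 4.3.3), with an intensity trend, treatment as the only term, two-sided tests and Benjamini-Hochberg adjustment over 20250 genes. Folds are on that scale, which understates changes of low counts. An exact permutation test of 2 against 2 libraries cannot go below 0.333. Replicates differed by more than counting noise (chi-square per degree of freedom 3.48 and 4.37). On simulated counts with 200 of 20250 genes changed, limma recovered 55.6% of those changed by 0.5 and 10 of its 160 calls were false. That is a far smaller share of changed genes than the 29.9% called in these data, so these rates need not carry over. Alternatives were pseudocounts of 0.5 and 5, no filter and a minimum mean of 50, TMM factors, equal column totals, no intensity trend, a replicate block, leaving out each library, and edgeR 4.0.16 and DESeq2 1.42.0 on recovered reads. Shared sequence was searched with blastn 2.17.0. The ligand genes and lists were chosen with earlier results of these data known. Named beside the ligand genes were the up to 4 called genes with the smallest p of each list, and the 3 genes nearest to the called ligand gene with the largest difference in each role.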

Additional observations from a re-analysis of the deposited data

How the results depend on the processing

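Across the 14 alternatives (13 for PDCD1LG2, which a minimum mean of 50 removed) the directions of CD274, PDCD1LG2, CD276, CD47, PVR, ULBP2 and ULBP3 held, with log2 differences of 0.52 to 0.78 for CD274, 0.44 to 0.51 for PVR and 0.35 to 0.55 for ULBP2. Without the intensity trend, 1625 of all genes, 2 ligand genes (PVR and PDCD1LG2) and 10 genes of the 6 lists were called, against 6048, 4 and 34. With every gene that had a read the counts were 2595 of all genes and 20 of the lists. In both fits less variance information was shared between genes (prior degrees of freedom 1.57 and 3.45, from 21.2). The sign of MICA turned with equal column totals (-0.0014), with DESeq2 (-0.0016) and without vehicle replicate 2 (-0.05), and that of MICB without vehicle replicate 2 (-0.03) and without octanoate replicate 1 (-0.04). Leaving out 1 library gave -0.05 to 0.06 for MICA and -0.04 to 0.13 for MICB, and neither gene was called in any fit. Leaving out 1 library gave 3 to 4 called ligand genes. With the replicate number as a block, which the labels do not explain, 8376 genes and 6 ligand genes were called, CD276 (adjusted p 0.043) and CD47 (0.0282) among them, along with 11 genes of the stability and shedding list and 10 of the stress list. Same-numbered libraries deviated together weakly (r 0.126 across 20250 genes, which are not independent). Of the 22 genes named from the lists by rule, 9 were called under every alternative. Depth limits PDCD1LG2, with 24 to 50 reads per library, and ULBP1, with 0, could not be tested.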

Other observations

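S100B, which encodes a calcium-binding protein used as a melanoma marker, fell from 4234 and 3741 normalised counts in vehicle to 1917 and 1746 in octanoate, a log2 difference of -1.12 (limma adjusted p 9.15e-12). MITF, the master regulator of the melanocyte lineage, fell from 3533 and 3330 to 2414 and 2511 (log2 difference -0.48, limma adjusted p 2.33e-06). The proteoglycan gene CSPG4 rose from 46074 and 42355 to 60680 and 57184 (log2 difference 0.42, limma adjusted p 1.47e-05, and 0.0701 without the intensity trend). Of the 11 melanoma and melanocyte markers 10 were tested, with 2 called higher and 3 lower (background 16.2% higher and 13.7% lower). The calls not yet given were PMEL, higher (log2 difference 0.55, limma adjusted p 0.0289), and PRAME, lower (-0.18, limma adjusted p 0.0247). The authors' deposited table gives PMEL an adjusted p of 0.224. These genes were chosen after their values were seen.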
